A study of Sus scrofa with 6 samples.

Results

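The Aurora kinases, the Polo-like kinases and the chromosomal passenger complex (CPC) were examined at the transcript level in porcine 2-cell embryos after SIN3A depletion. Genes were chosen by name from a list of 10 (AURKA, AURKB, AURKC, PLK1, PLK4, INCENP, BIRC5, CDCA8, TPX2 and BORA). Of these, 8 were found among the 17678 genes of the deposited table. AURKA and PLK4 were not found by name and were not analysed here. A gene was tested where its 6 values averaged 10 or more. All 8 genes met this, as did 11986 genes in all.

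Embryos of both groups were parthenogenetic. Oocytes matured in vitro from slaughterhouse ovaries of crossbred pigs were injected with siRNA at the MII stage and then activated by electrical pulses, cycloheximide and cytochalasin B, so they carry no paternal genome. NC embryos received a non-specific siRNA, and SIN3A KD embryos received siRNAs against 3 sites of SIN3A, the scaffold of the SIN3/HDAC complex. RNA was taken at 32 h after activation from 3 replicates per group, each a pool of 20 embryos, so cells and embryos within a pool cannot be told apart. The comparison asks whether depletion of SIN3A changed the transcripts of the mitotic kinases and their partners before the embryos of the 2 groups differed in appearance. Values of single libraries are listed below in the order of replicates 1, 2 and 3. In units of 1000000 reads, the estimated depth was 10.9, 7.82 and 12.9 for the NC libraries and 11.8, 15.8 and 10.2 for the KD libraries.

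Aurora and Polo kinases drive entry into and passage through M phase. AURKA builds the spindle with its activator TPX2, and BORA helps AURKA to switch on PLK1. AURKB or its germline relative AURKC joins INCENP, survivin (BIRC5) and borealin (CDCA8) to form the CPC, which corrects the attachment of chromosomes to the spindle and prepares cytokinesis. In the first cleavages of a mammalian embryo these proteins are made largely from transcripts stored in the oocyte, whose translation depends on the length of their poly(A) tails. Cytoplasmic polyadenylation elements (CPEs) near the end of a 3′ UTR are bound by CPEB proteins, which control that length together with the polyadenylation signal.

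As the libraries were made from RNA captured with oligo(dT), the ends of the members' 3′ UTRs were searched for these elements in the longest mRNA of each gene. The letters searched on the transcript strand were TTTTAT or TTTTAAT for a CPE and AATAAA or ATTAAA for a polyadenylation signal, in the last 100 bases. A CPE and a signal may share bases, and such overlaps were counted under both. A CPE was present in 5 of the 8 genes (62.5%), AURKB, INCENP, CDCA8, TPX2 and BORA, against 1986 of the 10041 tested genes with an annotated 3′ UTR (19.8%). Anywhere in the 3′ UTR the figures were 6 of 8 genes and 65.1%, while the median 3′ UTR was 379.5 bases in the 8 genes and 1189 bases in the tested genes. A polyadenylation signal was present in 7 of the 8 genes and in 76.5% of the tested genes. The sites are shown because they are a feature that the choice of genes did not use. Each is 30 bases of the RefSeq sequence of Sscrofa11.1 on the strand of the gene, with CPEs and polyadenylation signals in capitals. CCNB1, the cyclin whose transcript was lower in SIN3A KD embryos, is given for comparison.
AURKB (chr12:53410840-53410869, minus strand): cctcctTTTTATttAATAAAggcggaagcg
INCENP (chr2:9411953-9411982, minus strand): ttgtttTTTTATcatagagcaaaagattta
CDCA8 (chr6:93764778-93764807, plus strand): gatttgTTTTAATtagagctactgaaagtt
TPX2 (chr17:35484723-35484752, plus strand): ttcctaTTTTAATcagaaAATAAAgatagt
BORA (chr11:45045054-45045083, plus strand): tcatttTTTTATcAATAAAtatttttgtac
CCNB1 (chr16:47348306-47348335, plus strand): tgagaaTTTTAATttatattcaaaacctaa
In AURKB the CPE began 8 bases before the start of the last polyadenylation signal. The distance was 34 bases in CDCA8, 47 bases in BORA, 51 bases in CCNB1 and 56 bases in TPX2. CDCA8 held a further CPE in this window, and the distance is for the site shown. BORA and TPX2 each held 2 signals in the window. Their distances are to the last signal, and the AATAAA in capitals is the nearer one. INCENP had a CPE but no match to either signal in this window. AURKC, PLK1 and BIRC5 had a signal and no match to the CPE letters there. A match is a description of the annotated sequence and says nothing of CPEB binding in these embryos.

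The labels were checked first. The normalized value of SIN3A was 37361, 33964 and 32404 across the NC libraries but 3271, 1079 and 4173 across the KD libraries. The groups were far apart, with a log2 fold change of -3.81 (SE 0.31, adjusted p = 8.45e-06 from limma). CCNB1 was also lower in every KD library, at 2113, 974 and 2171 against 8891, 9039 and 7729 in the NC libraries, with a log2 fold change of -2.37 (SE 0.21, adjusted p = 1.36e-05 from limma). Both calls depended on the settings of limma, while the log2 fold changes stayed the same. Without the variance trend both adjusted p values were 0.423. With robust empirical Bayes they were 0.469 for SIN3A and 0.439 for CCNB1. Over all genes tested, 19 (0.159%) had an adjusted p below 0.05, 7 of them higher (0.0584%) and 12 lower (0.1%) in KD embryos.

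The embryonic origin of the RNA was checked with marker genes. Of 15 oocyte and early embryo markers, 13 were found and 12 had a mean of at least 10, led by KPNA7 with a mean value of 39815. Their summed value was 81469 to 99976 per library. Markers of cumulus and granulosa cells summed to 32.2 to 71.1 per library over 9 genes found of 12, with STAR the most abundant at a mean of 15.4. Markers of stroma, blood and immune cells summed to 175 in NC replicate 1 and to 77.7 to 116 in the other 5 libraries, over 8 genes found of 9. In NC replicate 1 the globin gene HBB had a value of 74.9, against 1.96 at most in the other libraries. No marker found was at 0 in all 6 libraries, and the part of these cells in the results below was not tested.

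None of the 8 genes was called between SIN3A KD and NC embryos by limma at an adjusted p of 0.05, against 0.159% of all tested genes. None had an unadjusted p below 0.05 either, against 4.61% of tested genes. In all 8 genes the values of the 2 groups overlapped, whereas the groups did not overlap in 9.79% of tested genes (4.85% higher and 4.94% lower in KD embryos). The log2 fold change was above 0 in 5 genes and below 0 in 3, with a median of 0.024 beside 0.0026 over all tested genes. This split rested on single libraries. Without KD replicate 1 it was 2 above and 6 below, with a median of -0.023, and without KD replicate 3 it was 6 above and 2 below, with a median of 0.047. Every gene of the 8 but AURKB changed sign when some library was left out. With all 6 libraries, the 95% confidence intervals of the 8 lay between -0.31 and 0.49 on the log2 scale. Without NC replicate 3 they were wider, reaching -0.42 for BORA and 0.64 for AURKB, the lowest and highest limits over all settings run. SIN3A and CCNB1 lay far outside either span. Summed over the 8 transcripts, the NC libraries held 14707, 15549 and 14579 and the KD libraries 16073, 15379.5 and 14121, so this sum overlapped as well.

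**Figure D1:**
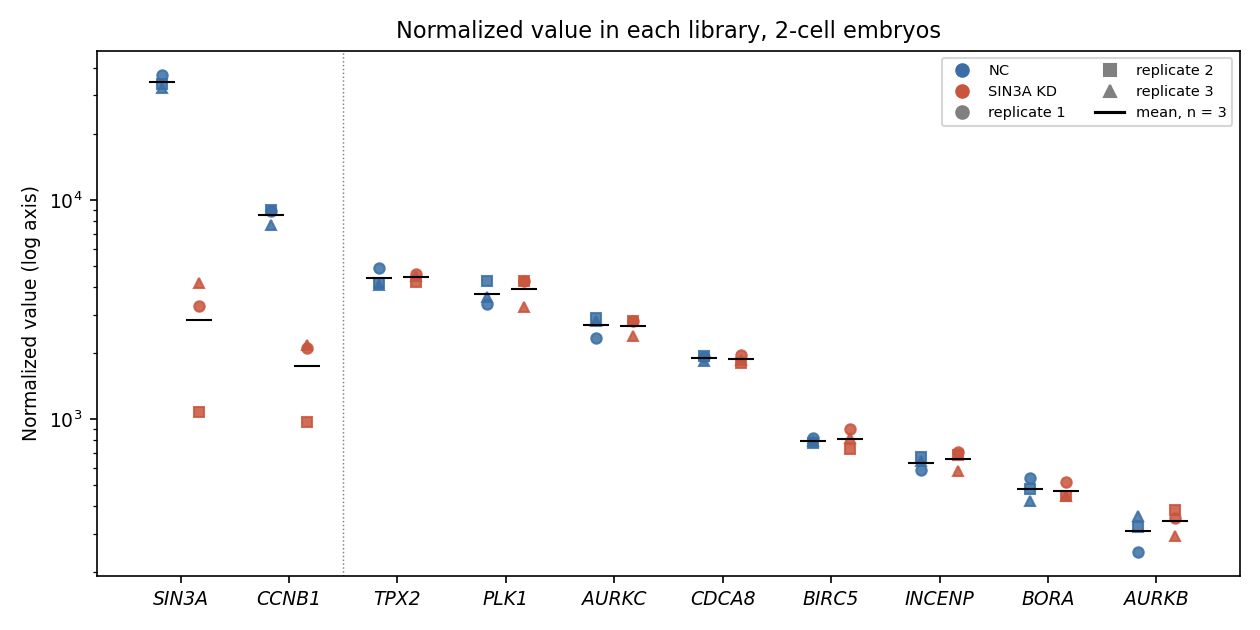
Normalized value (log axis) of SIN3A, CCNB1 and the 8 Aurora, Polo and passenger genes in each of the 6 libraries, with replicates 1 to 3 as circles, squares and triangles and the group mean as a black line. SIN3A and CCNB1 are lower in all 3 KD libraries, and the groups overlap in each of the 8 other genes.

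Among the kinases, AURKB (ENSSSCG00000028924, chromosome 12 from 53410833 to 53426165, minus strand) is the mitotic kinase of the CPC. The NC libraries held 248, 322 and 360 and the KD libraries 354, 387 and 294. The lowest and the next value belonged to NC replicate 1 and KD replicate 3, and the ranges crossed. NC embryos averaged 310 ± 56.9 and KD embryos 345 ± 46.9 (SD, n = 3 each). With all 6 libraries this was the largest log2 fold change of the 8 genes and also the least precise, at 0.16 (SE 0.16, 95% confidence interval -0.17 to 0.49, adjusted p = 0.997 from limma). The interval corresponds to a KD level of 0.888- to 1.41-fold the NC level. Both the value and its rank depended on single libraries. Without NC replicate 1 AURKB was at 0.0094, below TPX2 at 0.10. Without KD replicate 2 it was at 0.074, below BIRC5 at 0.11.

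AURKC (ENSSSCG00000034174, chromosome 6 from 61584575 to 61588402, plus strand) is the Aurora kinase of germ cells and early embryos and can take the place of AURKB in the CPC. The NC libraries held 2360, 2905 and 2807 and the KD libraries 2801, 2818 and 2390. Again NC replicate 1 and KD replicate 3 were the low libraries of their groups, and the means of 2691 ± 290 and 2670 ± 243 (SD, n = 3 each) were nearly equal. The log2 fold change was -0.0097 (SE 0.10, 95% confidence interval -0.22 to 0.21, adjusted p = 0.997 from limma).

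PLK1 (ENSSSCG00000026748, chromosome 3 from 22537814 to 22550901, minus strand) acts in mitotic entry, kinetochore attachment and cytokinesis. The NC libraries held 3339, 4255 and 3614 and the KD libraries 4257, 4272 and 3240. The spread within each group was wider than the gap between the means, 3736 ± 470 and 3923 ± 592 (SD, n = 3 each). The log2 fold change was 0.066 (SE 0.11, 95% confidence interval -0.18 to 0.31, adjusted p = 0.997 from limma), which allows a KD level of 0.885- to 1.24-fold the NC level.

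The activators were as close between the groups. TPX2 (ENSSSCG00000007235, chromosome 17 from 35431271 to 35484814, plus strand), which binds AURKA and targets it to spindle microtubules, was at 4905, 4194 and 4079 in the NC libraries and at 4579, 4233 and 4493 in the KD libraries. All 3 KD values lay within the NC range. Its log2 fold change was 0.018 (SE 0.090, 95% confidence interval -0.17 to 0.21, adjusted p = 0.997 from limma). BORA (ENSSSCG00000025120, chromosome 11 from 45017651 to 45045127, plus strand), the cofactor through which AURKA activates PLK1, was at 539, 483 and 424 in the NC libraries and at 515, 445 and 445 in the KD libraries. Here too the NC range enclosed the KD values. Its log2 fold change was -0.037 (SE 0.13, 95% confidence interval -0.31 to 0.23, adjusted p = 0.997 from limma).

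The non-kinase subunits of the CPC overlapped between the groups as well. INCENP (ENSSSCG00000013066, chromosome 2 from 9411942 to 9445825, minus strand), the scaffold that binds and activates the kinase, was at 585, 670 and 647 in the NC libraries and at 708, 688 and 579 in the KD libraries. BIRC5 (ENSSSCG00000040486, chromosome 12 from 3747276 to 3755214, minus strand), which brings the complex to centromeric chromatin, was at 817, 779 and 794 in the NC libraries and at 898, 733 and 818 in the KD libraries. CDCA8 (ENSSSCG00000032909, chromosome 6 from 93750694 to 93764845, plus strand), which links INCENP and BIRC5, was at 1913, 1942 and 1853 in the NC libraries and at 1961, 1804 and 1863 in the KD libraries. For each of these subunits the ranges of the groups crossed, and in CDCA8 the values of all 6 libraries fell within a narrow band. The coefficient of variation in NC embryos was 6.92% for INCENP, 2.44% for BIRC5 and 2.37% for CDCA8, against 10.2% to 18.3% for the other 5 genes. In KD embryos it was 10.6%, 10.1% and 4.23% for these subunits and 4.06% to 15.1% for the other 5 genes, with TPX2, BORA at 8.64% and AURKC at 9.08% below INCENP and BIRC5. The log2 fold changes were 0.050 (SE 0.12) for INCENP, 0.031 (SE 0.11) for BIRC5 and -0.021 (SE 0.088) for CDCA8, and limma gave an adjusted p of 0.997 for all of them. Their 95% confidence intervals were -0.20 to 0.30, -0.20 to 0.26 and -0.21 to 0.17. In the exact permutation test over samples, whose smallest two-sided p with 3 against 3 replicates is 0.1, the 8 genes had p values of 0.6 to 0.9.

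**Figure D2:**
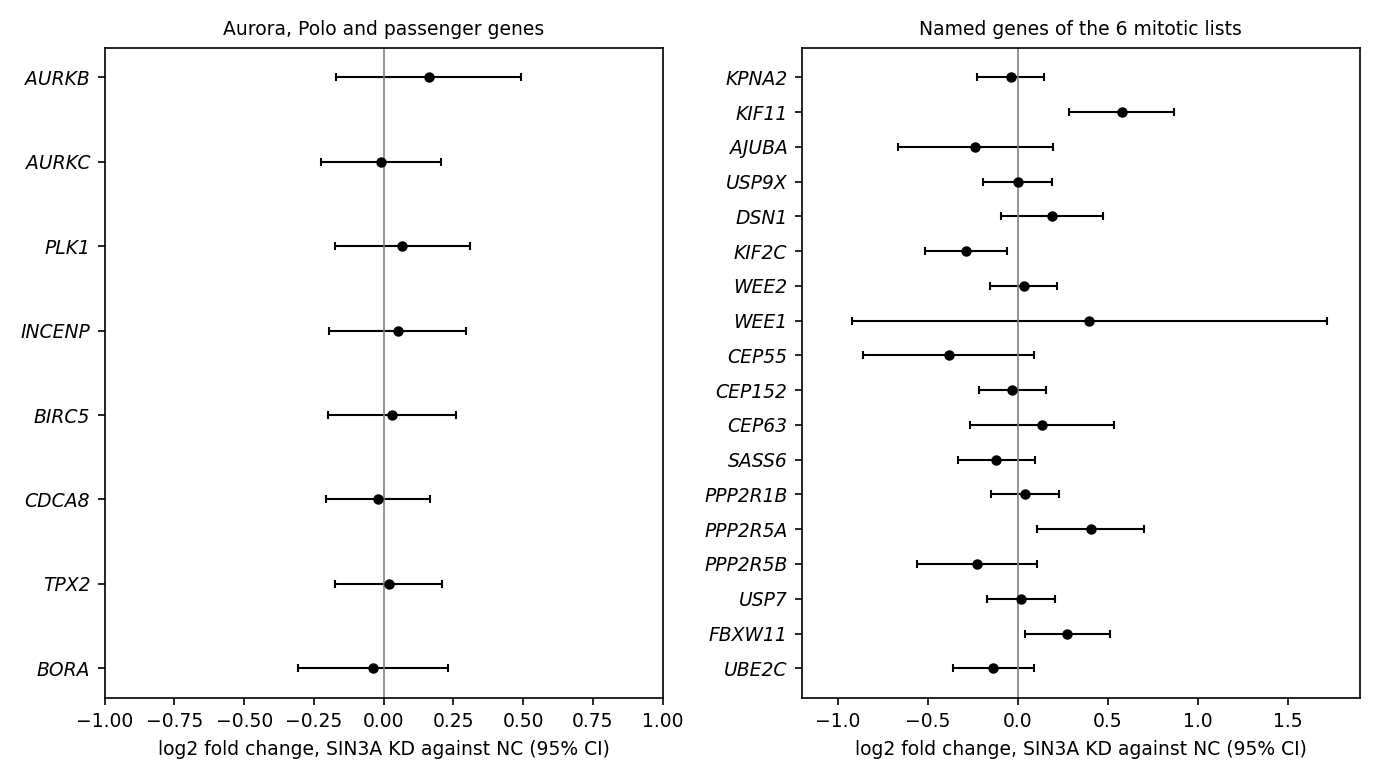
Log2 fold change of SIN3A KD against NC with its 95% confidence interval from limma, for the 8 Aurora, Polo and passenger genes (left) and for the named genes of the 6 mitotic lists (right). All 8 intervals on the left cross 0, with AURKB the widest (-0.17 to 0.49), and on the right KIF11 stands highest at 0.58.

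Levels were compared between genes as values per kb of the longest RefSeq mRNA, since longer transcripts yield more reads. In NC embryos AURKC was the most abundant on this scale at 1987 ± 214 (SD, n = 3), ahead of TPX2 at 1399 ± 143, PLK1 at 1040 ± 131, CDCA8 at 842 ± 19.9 and BIRC5 at 545 ± 13.3. Each of these neighbours in the order was separated without overlap of the NC libraries and of the KD libraries. BORA at 127 ± 15.2, INCENP at 116 ± 8.05 and AURKB at 102 ± 18.6 formed the low end, and these neighbours overlapped in both groups. The order holds for this choice of length. With the shortest mRNA, BIRC5 rose to 1005 ± 24.5 per kb and so above CDCA8, and AURKB reached 242 ± 44.3 and BORA 232 ± 27.6 while INCENP, with a single annotated mRNA, stayed at 116. As values without a length correction, the means over the 6 libraries placed TPX2 at the 96.1st percentile of tested genes, PLK1 at the 95.3rd and AURKC at the 92.3rd, and AURKB at the 59.9th.

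**Figure D3:**
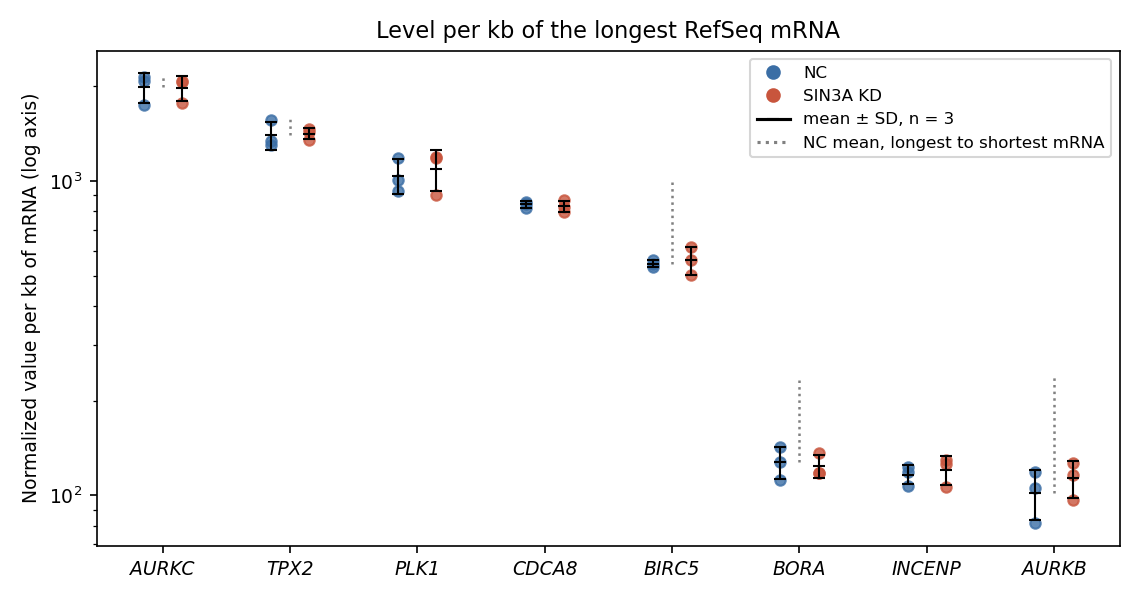
Normalized value per kb of the longest RefSeq mRNA (log axis) of the 8 genes, with each library as a point, mean ± SD (n = 3) in black, and a dotted line from the NC mean per kb of the longest to that of the shortest mRNA. AURKC leads at 1987 in NC, and BORA, INCENP and AURKB lie near 100 in both groups.

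The pairs of subunits that work together were then compared within each library, where the scaling between libraries cancels. Per kb of the longest mRNA, AURKC stood above AURKB by 19.8 ± 1.98 times in NC and 17.5 ± 0.980 times in SIN3A KD embryos (SD, n = 3 each). In single libraries the ratio ran from 16.4 to 21.4. AURKB has 13 annotated mRNAs of 1284 to 3051 bases, and with the shortest mRNA of both genes the ratio was 8.98 ± 0.901 in NC and 7.96 ± 0.446 in KD embryos. Thus AURKC exceeded AURKB in all 6 libraries with either length. The coding sequences of the 2 kinases are identical at 80.9% of 894 aligned bases, and their annotated mRNAs share no stretch of 31 bases. Reads that match both in part could still have been split by the authors' assignment.

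PLK1 stood above BORA by 8.26 ± 1.51 times in NC and 8.83 ± 1.22 times in SIN3A KD embryos per kb. Within the CPC, CDCA8 stood above INCENP by 7.27 ± 0.544 times in NC and 6.93 ± 0.751 times in KD embryos, and BIRC5 above INCENP by 4.71 ± 0.452 and 4.67 ± 0.654 times. BIRC5 and CDCA8 were closer, with a ratio of BIRC5 to CDCA8 of 0.648 ± 0.0240 in NC and 0.672 ± 0.0406 in KD embryos. These levels depend on the mRNA length: with the shortest mRNAs, PLK1 stood above BORA by 4.54 times in NC embryos, BIRC5 above INCENP by 8.68 times, and BIRC5 to CDCA8 was 1.19. From the values as deposited, without a length, CDCA8 stood above INCENP by 3.01 times in NC embryos, BIRC5 above INCENP by 1.26 times, CDCA8 above BIRC5 by 2.39 times, AURKC above AURKB by 8.77 times and PLK1 above BORA by 7.84 times. The groups overlapped in each of the 5 ratios. The log2 differences between KD and NC were 0.17 for AURKB to AURKC, -0.10 for BORA to PLK1, 0.019 for INCENP to BIRC5, 0.071 for INCENP to CDCA8 and 0.052 for BIRC5 to CDCA8. The exact two-sided permutation test gave p values of 0.3, 0.7, 1.0, 0.5 and 0.4 in that order, and the lowest value after Benjamini-Hochberg adjustment over the 5 ratios was 0.833. With 3 replicates per group the exact test cannot go below 0.1.

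Within each group, 1 library was low in the same 4 genes. AURKB, AURKC, PLK1 and INCENP were each lowest in NC replicate 1 among NC libraries and in KD replicate 3 among KD libraries. In NC replicate 1 they lay 0.30, 0.18, 0.15 and 0.11 below their NC mean on the log2 scale, in the order named. TPX2, BORA and BIRC5 were instead highest in NC replicate 1, by 0.16, 0.17 and 0.037 above their NC mean. The same library stood apart in base composition. Over 10207 tested genes with a RefSeq mRNA, its deviation from the NC mean changed by -0.12 log2 units per 10 percentage points of GC. For KD replicate 3 the deviation from the KD mean changed by -0.048. The other 4 libraries, each set against the mean of its own group, had slopes of 0.023 to 0.066. The mRNAs of PLK1, INCENP and AURKC have 57.2%, 57.2% and 56.6% GC, and that of TPX2 has 45.3%. BIRC5, at 58.2% GC, was not low in these libraries, and the longest AURKB mRNA has 49.0% GC. Whether GC content bears on the low values of the 4 genes was not tested.

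After each library was corrected for GC content and mRNA length, the SD within groups on the log2 scale fell from 0.21 to 0.18 for PLK1, from 0.15 to 0.12 for AURKC, from 0.13 to 0.10 for INCENP and from 0.11 to 0.083 for TPX2. It did not fall for the other 4 genes, and that of AURKB was 0.24 before and 0.25 after. The median SD of the 8 genes was 0.14 before and 0.12 after, beside 0.20 and 0.18 over the tested genes. None of the 8 genes was called with this correction.

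**Figure D4:**
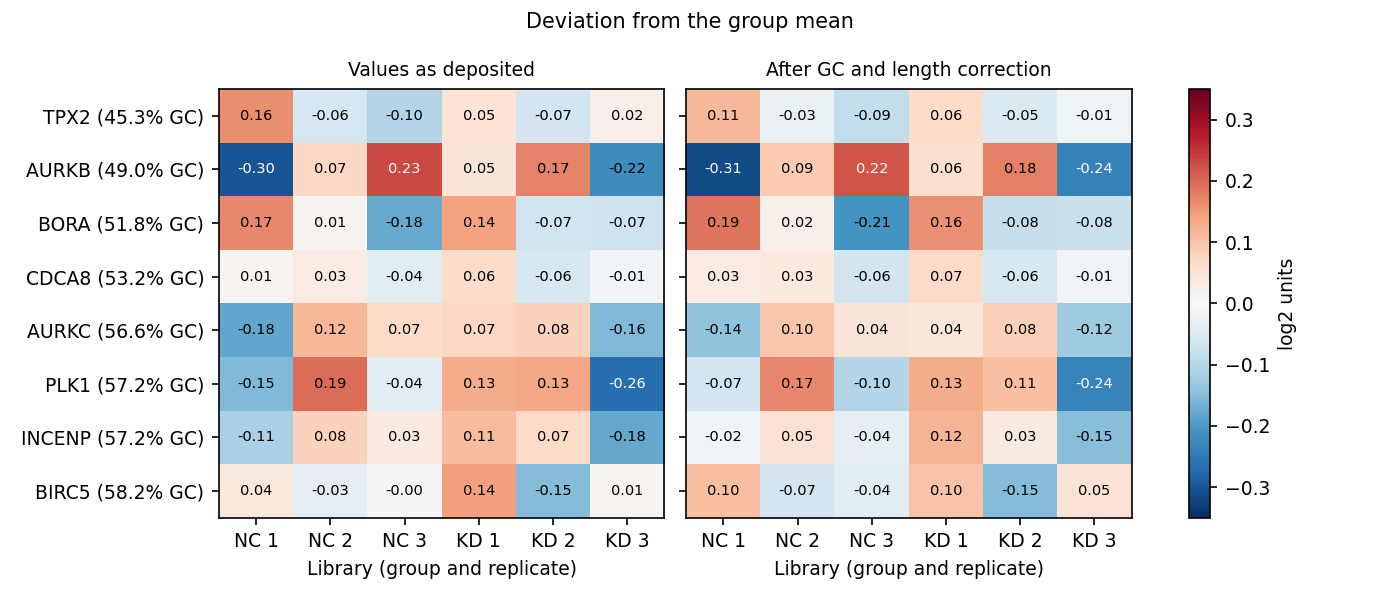
Deviation of each of the 8 genes from its group mean (log2 units, colour and number) in the 6 libraries, as deposited (left) and after the GC and length correction (right), with genes ordered by the GC content of their longest mRNA. AURKB, AURKC, PLK1 and INCENP are lowest in NC 1 and KD 3 on the left, and AURKB is still at -0.31 in NC 1 on the right.

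Beyond the 8 genes, 115 names in 6 lists of partners, targets and regulators were looked up. Of these, 102 were found, 8 of them by their Ensembl identifier alone, and 99 passed the filter on low values. None of the 99 was called by limma in either direction, against 0.0584% of tested genes called higher and 0.1% called lower. An unadjusted p below 0.05 was found in 8 of the 99, and the groups did not overlap in 9 of the 99, beside 4.61% and 9.79% of all tested genes. Their median log2 fold change was -0.0028, with 47 genes above 0 and 52 below.

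Of 13 tested activators and partners of AURKA the median log2 fold change was 0.023. KPNA2, an importin that holds TPX2 inactive, was the most abundant with 7608 ± 352 in NC and 7416 ± 694 in KD embryos (SD, n = 3 each). KIF11, the kinesin that keeps spindle poles apart and a target of AURKA, was at 395, 285 and 341 in the NC libraries and at 476, 487 and 551 in the KD libraries, so that every KD value was above every NC value. Its log2 fold change of 0.58 (SE 0.14) was the largest among the 99 genes but had an adjusted p of 0.227 from limma. With the GC and length correction it was 0.62 with an adjusted p of 0.0187 from limma. The KIF11 mRNA has 38.3% GC, and whether this bears on its change was not tested. AJUBA, an activator of AURKA, had the lowest log2 fold change of this list at -0.24 (SE 0.20), which was -0.11 without KD replicate 1 and -0.36 without KD replicate 2.

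Of 17 tested genes that recruit the CPC or are its targets, 5 had a log2 fold change above 0 and 12 below, with a median of -0.068. USP9X, a deubiquitinase that acts on survivin, had the highest value, 8041 ± 941 in NC and 8004 ± 205 in KD embryos. DSN1, a kinetochore subunit that AURKB phosphorylates, was at 0.19 (SE 0.13), and at 0.13 without NC replicate 1. KIF2C, the microtubule-depolymerizing kinesin controlled by AURKB, was at 1429, 1142 and 1223 in the NC libraries and at 1118, 981 and 995 in the KD libraries. Its groups did not overlap, but its log2 fold change of -0.29 (SE 0.11) had an adjusted p of 0.922 from limma. Leaving out a library gave -0.36 to -0.20 for KIF2C. The related kinesin KIF2A, chosen after its values were seen, was the only other gene of this list with an unadjusted p below 0.05 or without overlap, at -0.21 (SE 0.094, adjusted p = 0.997 from limma). It ran from -0.26 to -0.18 when a library was left out. Each trait was thus found in 2 of the 17 genes, beside 4.61% and 9.79% of all tested genes.

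Of 22 tested Polo-like kinases, Polo partners and targets, the median was -0.031, 3 had an unadjusted p below 0.05 and 2 had groups that did not overlap, beside 4.61% and 9.79% of all tested genes. These 3 genes were chosen after their values were seen. ECT2, the exchange factor that starts the cleavage furrow downstream of PLK1, was at -0.23 (SE 0.094) and CENPU, a kinetochore protein that binds PLK1, at -0.29 (SE 0.11), both without overlap. PKMYT1, a kinase that inhibits CDK1, was at 0.30 (SE 0.14) with overlap. For each of them limma gave an adjusted p of 0.997. With the GC and length correction ECT2 was at -0.15, CENPU at -0.23 and PKMYT1 at 0.22. When a library was left out, ECT2 ran from -0.28 to -0.16, CENPU from -0.34 to -0.26 and PKMYT1 from 0.22 to 0.41. WEE2, the oocyte form of the kinase that inhibits CDK1, was by far the most abundant with 43196 ± 2955 in NC and 44218 ± 3226 in KD embryos. Its somatic relative WEE1 was near the filter, with single values of 3.12 to 22.2, and had a log2 fold change of 0.40 (SE 0.62). This value turned to -0.25 without NC replicate 1 and to -0.0050 without KD replicate 2, and it was 0.18 with a pseudocount of 10. CEP55, which acts at the midbody after release from PLK1, was at -0.39 (SE 0.22), and at -0.14 without KD replicate 2.

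The 12 tested genes of PLK4 and centriole duplication had a median of 0.0038 and no unadjusted p below 0.05, beside 4.61% of all tested genes. CEP152, the centrosomal receptor of PLK4, had 4742 ± 422 in NC and 4628 ± 171 in KD embryos. Its partner CEP63 was at 0.13 (SE 0.19), and the cartwheel protein gene SASS6 at -0.12 (SE 0.10) on the log2 scale. Both depended on single libraries. CEP63 ran from -0.012 without NC replicate 3 to 0.29 without NC replicate 1, and was at 0.25 and 0.034 without KD replicates 2 and 3. SASS6 ran from -0.20 without NC replicate 3 to -0.029 without NC replicate 1, and was at -0.073 without KD replicate 2 and at -0.078 with the GC and length correction.

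Among 22 tested phosphatase genes that oppose these kinases the median was -0.0071. PPP2R1B, a scaffold of PP2A, had 25789 ± 2808 in NC and 26402 ± 487 in KD embryos. PPP2R5A, a subunit that directs PP2A to kinetochores, was at 277, 321 and 269 in the NC libraries and at 428, 329 and 396 in the KD libraries, without overlap. Its log2 fold change of 0.40 (SE 0.14) had an adjusted p of 0.852 from limma. The related PPP2R5B was at -0.23 (SE 0.16), and at -0.13 and -0.15 without NC and KD replicate 2. The groups did not overlap in 3 genes of this list of 22, beside 9.79% of all tested genes. The others, chosen after their values were seen, were PPP2R2A, a regulatory subunit of PP2A, at -0.16 (SE 0.12), and PPP6R3, a regulatory subunit of PP6, at 0.13 (SE 0.089), each with an adjusted p of 0.997 by limma. PPP2R2A was at -0.067 without NC replicate 1 and at -0.099 with the GC and length correction.

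For 13 tested genes of the turnover of Aurora, Polo and BORA the median was 0.0080. USP7, a deubiquitinase, had the highest value with 10185 ± 1037 in NC and 10300.2 ± 608 in KD embryos. FBXW11, an F-box protein of the ligase that removes BORA, was at 1284, 1059 and 1237 in the NC libraries and at 1296, 1397 and 1646 in the KD libraries, without overlap and with a log2 fold change of 0.28 (SE 0.11, adjusted p = 0.997 from limma). Without KD replicate 3 it was 0.18. UBE2C, the ubiquitin-conjugating enzyme of the anaphase-promoting complex, was at -0.14 (SE 0.11), with -0.061 without NC replicate 3, -0.21 without NC replicate 1 and -0.080 with the GC and length correction.

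**Figure D5:**
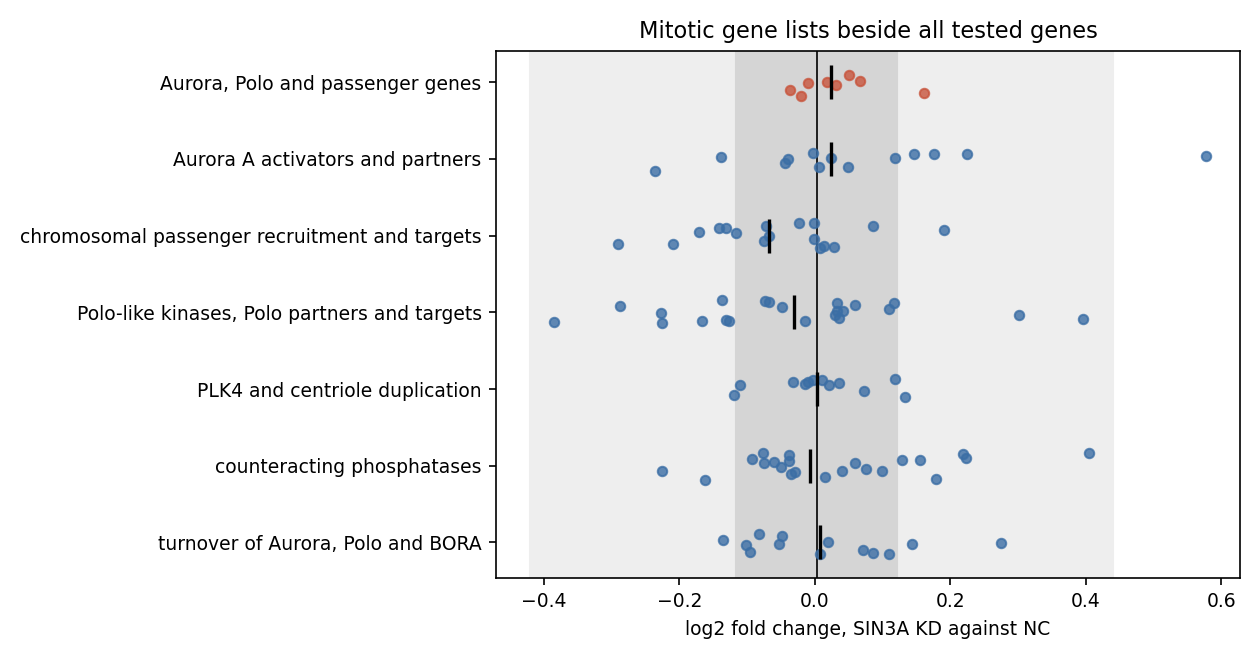
Log2 fold change of SIN3A KD against NC for the 8 Aurora, Polo and passenger genes (red) and for the tested genes of the 6 mitotic lists (blue), each with its median as a black tick. Grey bands span 5% to 95% (-0.42 to 0.44) and 25% to 75% (-0.12 to 0.12) of all tested genes, and KIF11 at 0.58 is the gene furthest to the right.

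These values are relative. They were scaled between libraries by the authors, so a change shared by all transcripts of an embryo, or a smaller number of cells in a pool, cannot be told apart from no change. As RNA was captured with oligo(dT), a change in poly(A) tail length cannot be told apart from a change in mRNA amount either. The spike-in RNAs that the labels mention were not used here.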

How the data were processed

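Poly(A) RNA of 3 NC and 3 SIN3A KD pools was sequenced, with groups and replicates as titled in the labels. The authors assigned reads to Sscrofa11.1 transcripts with Salmon 0.14.1 and used DESeq2, and deposited the result as a normalized signal for each Ensembl gene, not scaled to length. Depth was estimated from the spacing of low values. Between 43.1% and 66.1% of values below 20 reads lay within 0.05 reads of a whole number, so no count test was run. Genes with a mean of at least 10 were tested with limma 3.58.1 (R 4.3.3) on log2(value + 1), with a variance trend and Benjamini-Hochberg adjustment over all 11986 genes. Fold changes on this scale understate changes of low genes, and low values are less precise. In simulated data of 11864 genes, 71 of 99 genes changed 2-fold and 97 of 98 changed 4-fold were called, with 4 false calls. That simulation gave every gene the same dispersion between replicates and gave the libraries no GC trend. Its shares of genes called may therefore not hold for the real data. Exact permutation tests used scipy 1.17.1, and figures matplotlib 3.10.9. Lengths, GC content, positions and sequences came from RefSeq annotation of Sscrofa11.1, with 10207 of the tested genes matched by symbol.

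The genes and lists were chosen with earlier results of these data known. Named genes are the 8 members, SIN3A, CCNB1, and of each list the most abundant gene, the largest rise and the largest fall. A further 6 list genes (CENPU, ECT2, KIF2A, PKMYT1, PPP2R2A and PPP6R3) were named after their values were seen, for an unadjusted p below 0.05 or groups without overlap. The paper describes the replicates as independent. The labels do not say whether replicates of a group came from separate batches of oocytes, so p values measure only the spread between these pools. Alternatives changed the pseudocount to 0.1 or 10, the filter to none or to a mean of 100, and the scaling to TMM-like or quantile. Others were no variance trend, robust empirical Bayes, the replicate block, a GC and length correction, both together, leaving out each library, and other mRNA lengths or 3′ UTR windows.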

Additional observations from a re-analysis of the deposited data

How the results depend on the processing

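Across 17 alternatives, 136 comparisons of the 8 genes gave no adjusted p below 0.05, and the lowest was 0.820. The number of the 8 genes called was 0 in every setting run. The sign of their small log2 fold changes turned in 15 of the 136. When each library was left out, they ranged from 0.0094 to 0.28 for AURKB, -0.10 to 0.068 for AURKC, -0.011 to 0.20 for PLK1, -0.0066 to 0.14 for INCENP, -0.041 to 0.11 for BIRC5, -0.053 to 0.0068 for CDCA8, -0.033 to 0.10 for TPX2 and -0.13 to 0.047 for BORA. Under the correction for GC and length, whether or not blocked by replicate, INCENP was at -0.0074 and KPNA2 at 0.0021. Among 24 other named genes, 15 of 406 comparisons turned. When a library was left out, the genes that turned ran from -0.11 to 0.026 for KPNA2, -0.064 to 0.092 for USP9X, -0.025 to 0.094 for WEE2, -0.25 to 0.77 for WEE1, -0.086 to 0.038 for CEP152, -0.012 to 0.29 for CEP63, -0.037 to 0.12 for PPP2R1B and -0.024 to 0.10 for USP7.

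Of the list genes, 0 were called, but 1, KIF11, was called (1 higher, 0 lower) with the GC and length correction (adjusted p = 0.0187) and with it and the replicate block (0.00739). Over all alternatives its adjusted p ran from 0.00739 to 0.999. The count over all genes was 19 (7 higher, 12 lower). It was 0 in both directions without the variance trend (limma, 622 genes at an unadjusted p below 0.05), 34 (17 and 17) with the GC and length correction, 56 (26 and 30) with that and the replicate block, 26 with the replicate block alone, and 14 with 4 higher after quantile normalization. Leaving out a library gave 11 to 19, with 3 to 8 higher and 8 to 14 lower, and the lowest, 11, came without KD replicate 2, with 12 without NC replicate 2 or 3. SIN3A at -3.81 and CCNB1 at -2.37 had adjusted p values of 0.423 without the variance trend and of 0.469 and 0.439 with robust empirical Bayes. Why the settings differ in this was not tested. Without a library they ranged from -4.20 to -3.22 and from -2.57 to -1.99. Deviations from the group means correlated at 0.109, 0.111 and 0.087 between same-numbered NC and KD libraries. Between differently numbered libraries the correlations were -0.083 to -0.021. Whether same-numbered libraries form pairs was not tested, and the main test treated them as unpaired. The replicate block alone called no further gene among the 8 or the lists.

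With the median mRNA length, AURKB and INCENP exchanged ranks 7 and 8 in the order of levels, and the other 6 genes held their rank. The edgeR alternative was not run, as whole reads were not recovered.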
